A study of Mus musculus with 20 samples.

Results

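This account covers 10 genes of lipoprotein assembly in mouse liver: the apolipoprotein genes Apoa1, Apoa2, Apoa4, Apoa5, Apob, Apoc1, Apoc2, Apoc3 and Apoe, and Mttp, which encodes the large subunit of the microsomal triglyceride transfer protein. They were taken by gene symbol from the deposited expression tables, in which all 10 were present, out of 55487 genes. RNA came from whole liver tissue of female C57BL/6N mice aged 15 weeks, and each of 4 groups held 5 libraries: Plin2-null mice fasted for 24 h, Plin2-null mice fed chow, Plin2+/+ mice fasted for 24 h and Plin2+/+ mice fed chow. Plin2 encodes perilipin 2, a coat protein of lipid droplets, and its null allele is the only one named. The labels of 10 libraries carry a feeding state without a genotype, and these were read as Plin2-null because the design holds no other genotype. No label links a library to an animal, litter or day, so p-values here measure the spread between libraries, which may in part be technical.

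Hepatocytes export triglyceride in very-low-density lipoprotein (VLDL), a particle built on a single molecule of apolipoprotein B that is loaded with lipid by the microsomal triglyceride transfer protein in the endoplasmic reticulum. The smaller apolipoproteins exchange between particles in plasma. They form the scaffold of high-density lipoprotein (HDL), switch lipoprotein lipase on or off, or serve as ligands for hepatic uptake receptors.

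Between 25506471 and 65579038 counts were assigned per library, and 16312 genes, all 10 described here included, passed the filter on low counts. Plin2 itself had 39.1 to 96.8 TPM (a transcript level corrected for gene length, with an equal total in every library) in Plin2-null fasted against 631 to 1259 TPM in Plin2+/+ fasted livers, and 12.9 to 25.0 TPM in Plin2-null fed against 137 to 248.8 TPM in Plin2+/+ fed livers, with log2 fold changes of −4.04 ± 0.23 (SE) in fasted and −3.72 ± 0.22 in fed mice. All 6 hepatocyte markers were present in every group, and their summed level was 68615 to 97281 TPM in Plin2-null fasted, 93238 to 121776 TPM in Plin2-null fed, 96812 to 123744 TPM in Plin2+/+ fasted and 99399 to 162099 TPM in Plin2+/+ fed livers, with Alb the most abundant. With fasting, 2 of the 6 fell in Plin2-null livers, and 2 rose and 2 fell in Plin2+/+ livers, and 1 was called lower with Plin2 loss in fasted livers. Over all genes, fasting calls were 18% higher and 18.1% lower in Plin2-null, and 20.9% higher and 21.7% lower in Plin2+/+ livers. With Plin2 loss in fasted livers, 1.73% of all genes were called lower. Counts of the rRNA-like gene CT010467.1 made up 4.87% to 24.8% of a library, with the highest share in Plin2-null fasted replicate 3. Log2 fold changes were fitted with edgeR on counts scaled by TMM, a method that aligns the bulk of genes between libraries, and a gene was called at a Benjamini-Hochberg adjusted p under 0.05 over all genes tested.

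Of the 10 genes, 7 lie in 2 clusters (GRCm38, GENCODE M21; all 10 are protein-coding, and the lengths behind the TPM match their full annotated exons). On chromosome 9, Apoa1 (ENSMUSG00000032083, 46228580 to 46230466, plus strand), Apoc3 (ENSMUSG00000032081, 46232933 to 46235636, minus strand), Apoa4 (ENSMUSG00000032080, 46240696 to 46243459, plus strand) and Apoa5 (ENSMUSG00000032079, 46268633 to 46271919, plus strand) lie within 43340 bases. On chromosome 7, Apoc2 (ENSMUSG00000002992, 19671579 to 19677941), Apoc1 (ENSMUSG00000040564, 19689481 to 19692660) and Apoe (ENSMUSG00000002985, 19696109 to 19699188) lie within 27610 bases, all on the minus strand. The other 3 stand alone: Apoa2 (ENSMUSG00000005681) on chromosome 1 from 171225054 to 171226379, plus strand; Apob (ENSMUSG00000020609) on chromosome 12 from 7977648 to 8016835, plus strand; and Mttp (ENSMUSG00000028158) on chromosome 3 from 138089854 to 138144968, minus strand. Apoc2 shares 79.5% of its exonic bases with the readthrough gene Gm44805 on the same strand, so its values, which rest on 107 to 375 counts a library, are uncertain. Apoa4 shares 69.8% of its exonic bases with the antisense genes Gm47528 and Gm10680, Apoa5 20.8% with Gm47544, and Mttp 9.49% with Gm43691 and Trmt10a. The library kit marked strand, but whether the counting used strand is not stated, so reads of these pairs cannot be told apart with certainty. In any library the partners held at most 0.237% of the counts of Apoa4, 0.0498% of those of Apoa5, 1.51% of those of Mttp and 2.35% of those of Apoc2. How reads on shared bases were assigned is not stated, so these shares do not bound any reads lost to the overlap.

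Promoter sequence is shown for the 4 genes that rose with fasting in both genotypes, because all 4 were called higher in each. The windows run from 250 bases before to 50 bases after the RefSeq start (GRCm38.p6, 5′ to 3′ on the gene's own strand): chr9:46228380-46228679 for Apoa1, chr9:46240594-46240893 for Apoa4, chr9:46268383-46268682 for Apoa5 (all plus strand) and chr3:138143369-138143668 for Mttp (minus strand). Capitals mark matches, on either strand, to 5 short motifs: TATAAA, the TATA box; CACGTG, the E-box core; AGGTCA, the core of nuclear receptor elements; CAAAGTCCA, a form of the HNF4A element; and TGACG, the core of cAMP response elements.
Apoa1: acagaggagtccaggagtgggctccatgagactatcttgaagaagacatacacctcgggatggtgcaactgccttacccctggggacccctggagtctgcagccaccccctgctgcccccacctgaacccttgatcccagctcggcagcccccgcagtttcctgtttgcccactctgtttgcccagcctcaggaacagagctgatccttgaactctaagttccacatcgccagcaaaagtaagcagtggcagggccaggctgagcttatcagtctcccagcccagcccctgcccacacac
Apoa4: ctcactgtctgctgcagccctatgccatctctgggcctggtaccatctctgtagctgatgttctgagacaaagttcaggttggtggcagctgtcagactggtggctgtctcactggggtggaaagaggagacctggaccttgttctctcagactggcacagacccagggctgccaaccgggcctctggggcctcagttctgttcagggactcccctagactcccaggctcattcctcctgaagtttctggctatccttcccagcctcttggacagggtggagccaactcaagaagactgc
Apoa5: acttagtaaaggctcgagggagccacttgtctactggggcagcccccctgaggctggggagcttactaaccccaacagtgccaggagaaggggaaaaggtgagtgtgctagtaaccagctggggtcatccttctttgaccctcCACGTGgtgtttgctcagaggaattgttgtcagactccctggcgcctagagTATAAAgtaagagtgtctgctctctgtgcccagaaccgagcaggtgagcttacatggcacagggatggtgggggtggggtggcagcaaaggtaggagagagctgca
Mttp: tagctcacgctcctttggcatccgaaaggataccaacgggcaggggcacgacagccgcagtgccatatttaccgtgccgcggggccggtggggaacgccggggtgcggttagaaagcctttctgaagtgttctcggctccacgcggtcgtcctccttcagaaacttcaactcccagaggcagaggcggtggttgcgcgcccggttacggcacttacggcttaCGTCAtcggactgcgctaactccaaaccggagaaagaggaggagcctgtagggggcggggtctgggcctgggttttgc
The Apoa5 window held CACGTG beginning 107 bases and TATAAA beginning 56 bases before the start, and the Mttp window held TGACG on the opposite strand, 28 bases before the start. The table holds a second RefSeq start for Apoa5, from which the same motifs begin 82 and 31 bases upstream; the window shown is that of the start further downstream. None of the 5 motifs occurred in the Apoa1 and Apoa4 windows. The annotated genes do not all begin at these RefSeq starts. Annotated Mttp begins at 138144968, so its window lies wholly within the gene, and Trmt10a starts inside the window at 138143448 on the other strand. Annotated Apoa1 (46228580) and Apoa4 (46240696) begin inside their windows, upstream of the RefSeq starts. Among all 32851 promoter windows of the table, TATAAA occurred in 13.6%, CACGTG in 7.15%, AGGTCA in 16.3%, CAAAGTCCA in 0.475% and TGACG in 20.8%. RefSeq windows were matched for 8 of the 10 genes. Genes not called with fasting held some of the 5 motifs in at least 1 window. TATAAA occurred in Apoa2, Apob and Apoe, and AGGTCA and TGACG each occurred in Apoa2 and Apoc2. AGGTCA occurred in none of the 4 windows shown. Its Apoa2 match lay only in the window chr1:171221314-171221613, wholly upstream of annotated Apoa2, which begins at 171225054. A match is a run of letters and was not tested as a binding site.

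**Figure D1:**
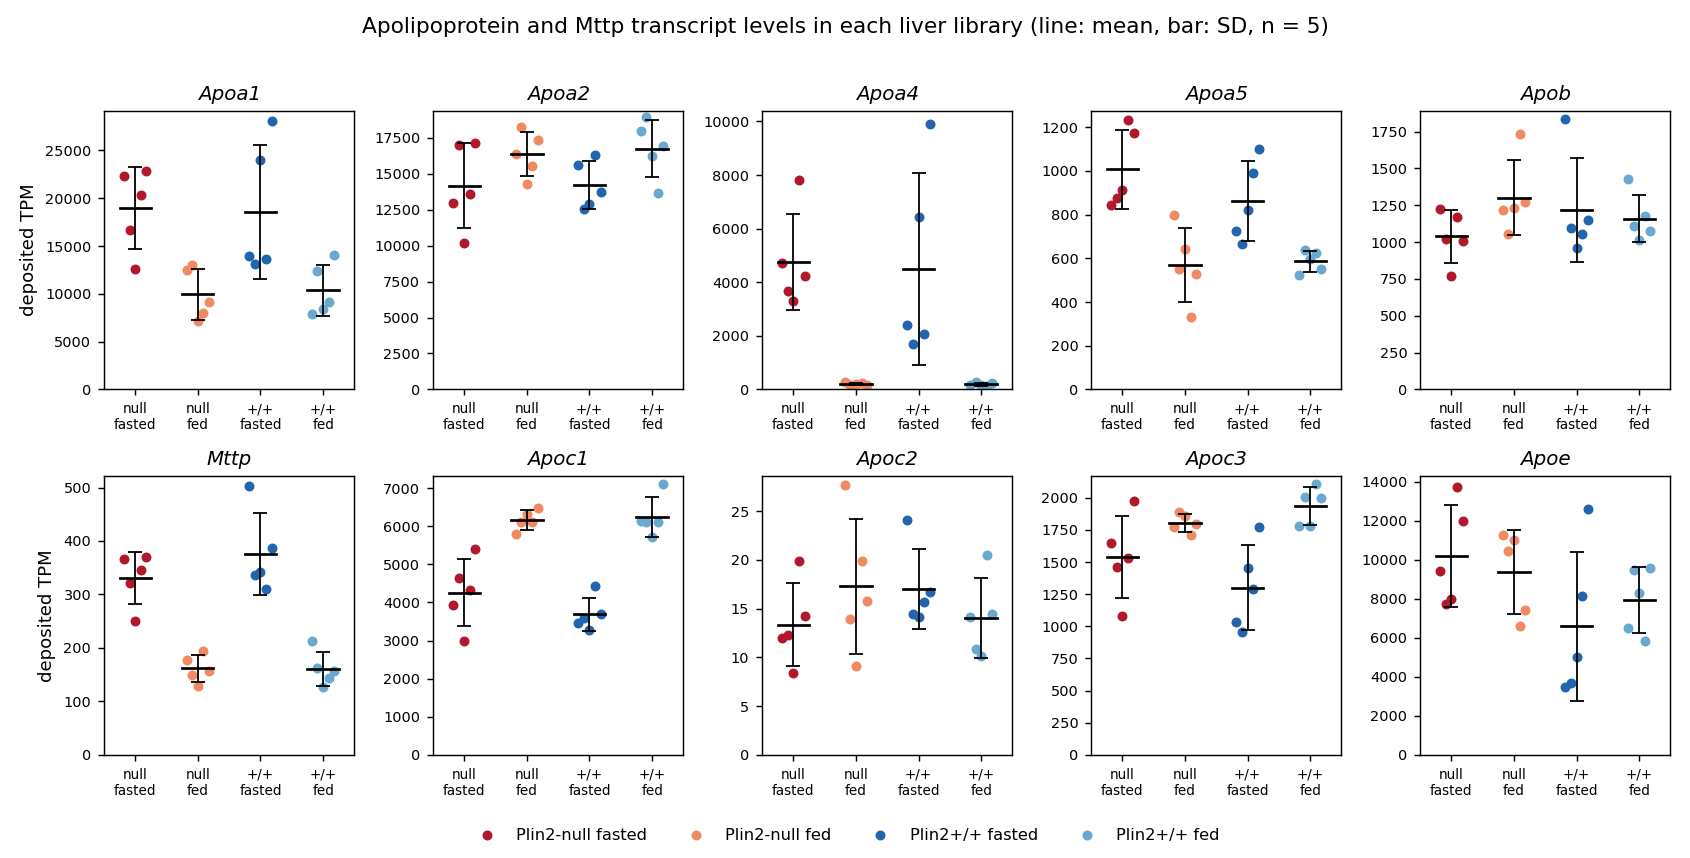
Deposited TPM (y axis, linear, from 0, a separate scale per panel) of each of the 10 genes in Plin2-null fasted, Plin2-null fed, Plin2+/+ fasted and Plin2+/+ fed livers, with 1 point per library, a line at the mean and a bar for the SD (n = 5). Apoa4 stood between 1683 and 9913 TPM in the fasted livers and between 146 and 274 TPM in the fed livers, while Apoa2 ran from 10174 to 18941 TPM over all 4 groups.

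The 10 genes together held a large share of the liver transcript pool. Their summed TPM was 5.62 ± 1.04% of the library in Plin2-null fasted, 4.59 ± 0.48% in Plin2-null fed, 5.13 ± 1.35% in Plin2+/+ fasted and 4.53 ± 0.57% in Plin2+/+ fed livers (SD, n = 5 each). Ordered by mean TPM, Apoa1 led the set in both fasted groups and Apoa2 in both fed groups. Apoa1 had the 5th highest mean TPM of all named genes in the Plin2-null fasted and in the Plin2+/+ fasted group. Apoa4 ranked 28 among named genes in Plin2-null fasted against 452 in Plin2-null fed livers, and 29 in Plin2+/+ fasted against 439 in Plin2+/+ fed livers.

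The order below the leaders also differed by feeding state. In both fasted groups it ran Apoa1, Apoa2, Apoe, Apoa4, Apoc1, Apoc3, Apob, Apoa5, Mttp and Apoc2. In both fed groups it ran Apoa2, Apoa1, Apoe, Apoc1, Apoc3, Apob, Apoa5, Apoa4, Mttp and Apoc2. The last place of Apoc2 is subject to the shared exons named above. In the fasted groups neighbours among the first 5 overlapped in TPM, as did Apoc3 with Apob and Apob with Apoa5, while the values separated between Apoc1 and Apoc3, between Apoa5 and Mttp and between Mttp and Apoc2. In the fed groups Apoa1 overlapped Apoe, and Apoa4 overlapped Mttp, in both genotypes. Apoc3 also overlapped Apob in the Plin2-null fed group, as did Apoa2 with Apoa1 and Apoe with Apoc1 in the Plin2+/+ fed group, and the other fed neighbours were apart. As shares of the summed TPM of the 10 genes, Apoa4 made up 8.38 ± 2.27% in Plin2-null fasted, 0.44 ± 0.12% in Plin2-null fed, 7.93 ± 4.41% in Plin2+/+ fasted and 0.43 ± 0.07% in Plin2+/+ fed livers (SD, n = 5 each). Apoc1 made up 7.59 ± 0.85% in Plin2-null fasted, 13.6 ± 1.73% in Plin2-null fed, 7.56 ± 1.96% in Plin2+/+ fasted and 13.9 ± 1.37% in Plin2+/+ fed livers (SD, n = 5 each).

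Fasting of Plin2-null mice raised 4 of the 10 genes, Apoa1, Apoa4, Apoa5 and Mttp, and lowered none. Of all genes tested, 18% were called higher and 18.1% lower, 36.1% in either direction. Fasting of Plin2+/+ mice raised the same 4 genes and lowered 2, Apoc1 and Apoc3. There 20.9% of all genes were called higher and 21.7% lower, 42.6% in either direction. The median log2 fold change of the 10 genes was 0.24 in Plin2-null and 0.32 in Plin2+/+ livers, beside −0.01 over all genes in either genotype. When libraries were scaled by library size alone, the median over all genes moved to −0.21 in Plin2-null and −0.16 in Plin2+/+ livers, and the calls over all genes became 1376 higher and 4243 lower in Plin2-null livers (2942 and 2954 by TMM) and 1854 higher and 4173 lower in Plin2+/+ livers (3416 and 3541 by TMM). In CPM (TMM-scaled counts relative to library size), fasted and fed libraries did not overlap for 4 of the 10 genes in each genotype, against 24.5% of all genes in Plin2-null and 26.7% in Plin2+/+ livers. Of 5 markers each, stellate cell markers fell with fasting for 2 in Plin2-null and 3 in Plin2+/+ livers, cholangiocyte markers for 1 in Plin2-null and 3 in Plin2+/+ livers, and of the endothelial markers 2 rose and 1 fell in Plin2-null while 2 rose and 2 fell in Plin2+/+ livers; their part in the members' values was not tested. In whole tissue, a change in the number of cells of a type and a change in RNA per cell cannot be told apart.

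Apoa4, which encodes a surface apolipoprotein of HDL and triglyceride-rich particles, had by far the widest response of the set. Its TPM in Plin2-null livers was 4729, 3681, 3287, 7803 and 4215 after fasting, against 274, 153, 185, 232 and 157 in the fed state. In Plin2+/+ livers it was 2422, 1683, 6428, 2051 and 9913 after fasting, against 154, 272, 182, 146 and 224 in the fed state. Fasted and fed libraries stood far apart in both genotypes. Among the Plin2+/+ fasted libraries, replicates 3 and 5 stood well above the other 3. This was a log2 fold change of 4.82 ± 0.44 in Plin2-null livers (SE; edgeR adjusted p = 1.09e-07), a 28.2-fold difference. The Plin2+/+ response was 4.63 ± 0.43 (edgeR adjusted p = 1.15e-07), a 24.8-fold difference.

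Markers of enterocytes, the other main source of Apoa4, were read in the same libraries. Alpi, Sis and Cdx2 had 0 TPM in all 20 libraries, and Rbp2, Lct and Vil1 did not exceed 0.32 TPM. Slc5a1 did not exceed 1.24 TPM. Fabp2, the intestinal-type fatty acid binding protein, was the exception of the 8 markers, with 223 to 464 TPM in Plin2-null fasted, 111 to 149 TPM in Plin2-null fed, 339 to 489 TPM in Plin2+/+ fasted and 80.9 to 220 TPM in Plin2+/+ fed livers. The summed level of the 8 markers was 223 to 465 TPM in Plin2-null fasted, 112 to 150 TPM in Plin2-null fed, 339 to 489 TPM in Plin2+/+ fasted and 81.8 to 221 TPM in Plin2+/+ fed livers, so Fabp2 carried almost all of it. Of the 2 markers with enough counts to be tested, Fabp2 was called higher with fasting in each genotype and Slc5a1 lower in Plin2+/+ livers, and their part in the Apoa4 values was not tested.

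Apoa1, the main structural protein of HDL, rose together with Apoa4. Its TPM in Plin2-null livers was 22295, 16709, 12566, 20339 and 22830 after fasting, against 12527, 13054, 7164, 8036 and 9106 in the fed state. In Plin2+/+ livers it was 13913, 13114, 23991, 13625 and 28112 after fasting, against 7842, 12347, 8391, 9112 and 14065 in the fed state. The same Plin2+/+ fasted replicates, 3 and 5, were high for Apoa1 and for Apoa4. In TPM the fasted and fed ranges overlapped in both genotypes, while in TMM-scaled CPM they were apart in Plin2-null livers and overlapped in Plin2+/+ livers. Apoa1 rose by 1.198 ± 0.219 in Plin2-null livers (log2, SE; edgeR adjusted p = 1.93e-04), or 2.29-fold. The rise was 0.99 ± 0.22 in Plin2+/+ livers (edgeR adjusted p = 9.19e-04), or 1.99-fold. Within a library, the TPM ratio of Apoa4 to Apoa1 was 0.252 ± 0.078 in Plin2-null fasted and 0.0211 ± 0.0068 in Plin2-null fed livers, and 0.215 ± 0.094 in Plin2+/+ fasted and 0.0191 ± 0.0030 in Plin2+/+ fed livers (SD, n = 5 each).

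Apoa2, the other abundant HDL protein, was not called. Its TPM ran from 10174 to 17121 (median 13598) in Plin2-null fasted and from 14275 to 18264 (median 16388) in Plin2-null fed livers. It ran from 12557 to 16320 (median 13719) in Plin2+/+ fasted and from 13656 to 18941 (median 16941) in Plin2+/+ fed livers. The groups overlapped in both genotypes. The log2 fold change was 0.08 (95% interval −0.19 to 0.35) in Plin2-null and −0.08 (−0.35 to 0.19) in Plin2+/+ livers.

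Of the 2 genes needed to build VLDL, Mttp rose and Apob was not called. Mttp TPM in Plin2-null livers was 366, 321, 251, 346 and 369 after fasting, against 178, 150, 129, 195 and 158 in the fed state. In Plin2+/+ livers it was 503, 337, 342, 309 and 387 after fasting, against 213, 163, 127, 143 and 157 in the fed state. Every fasted library lay above every fed library of its genotype. Mttp rose by 1.32 ± 0.12 in Plin2-null livers (log2, SE; edgeR adjusted p = 3.75e-08), or 2.49-fold. The corresponding rise was 1.38 ± 0.12 in Plin2+/+ livers (edgeR adjusted p = 1.64e-08), or 2.60-fold.

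Apob, which encodes the structural protein of VLDL, had overlapping groups. Its TPM ran from 768 to 1224 (median 1019) in Plin2-null fasted and from 1052 to 1731 (median 1230) in Plin2-null fed livers. It ran from 958 to 1839 (median 1097) in Plin2+/+ fasted and from 1014 to 1427 (median 1107) in Plin2+/+ fed livers. The log2 fold change was −0.04 (95% interval −0.33 to 0.25) in Plin2-null and 0.21 (−0.07 to 0.50) in Plin2+/+ livers. The TPM ratio of Mttp to Apob within a library was 0.320 ± 0.029 in Plin2-null fasted and 0.126 ± 0.018 in Plin2-null fed livers, and 0.313 ± 0.034 in Plin2+/+ fasted and 0.138 ± 0.013 in Plin2+/+ fed livers (SD, n = 5 each).

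**Figure D2:**
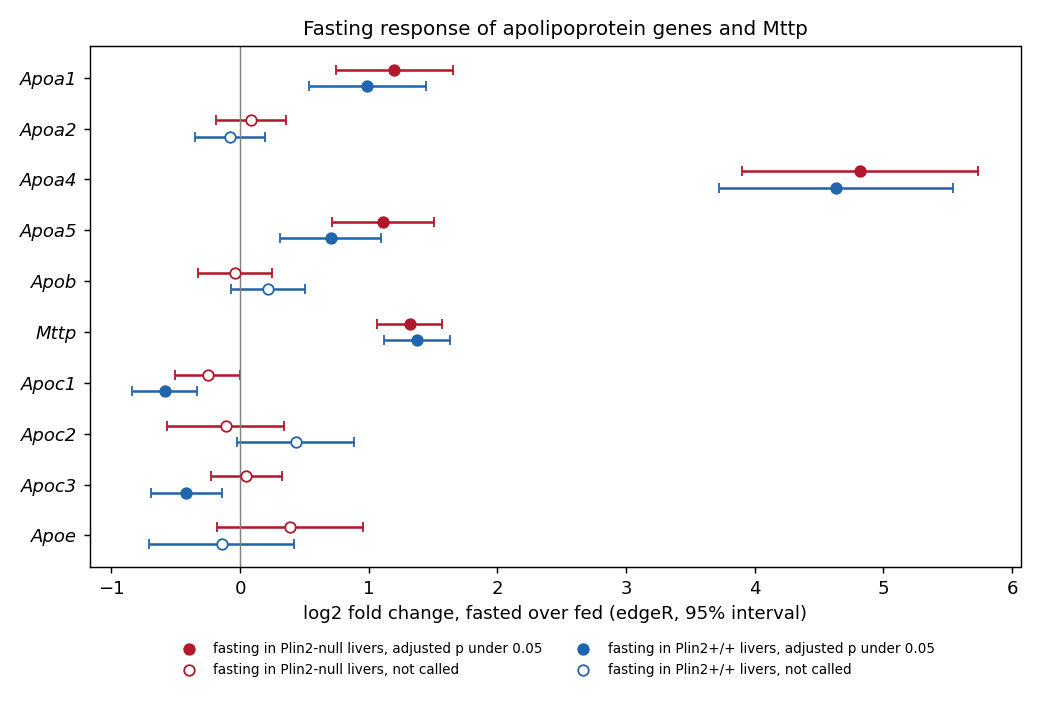
Log2 fold change of fasted over fed livers (x axis) for each of the 10 genes, in Plin2-null (red) and Plin2+/+ (blue) mice, with 95% intervals. Filled points passed an edgeR adjusted p under 0.05. Apoa1, Apoa4, Apoa5 and Mttp lie to the right of 0 in both genotypes, and Apoc1 and Apoc3 are filled to the left of 0 in Plin2+/+ mice, where they stood at −0.59 and −0.42.

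Lipoprotein lipase, which unloads triglyceride from VLDL in peripheral tissue, is helped by apolipoproteins A-V and C-II and restrained by C-III and C-I. The gene of the helper A-V rose with fasting in both genotypes, and those of both restraining proteins fell in Plin2+/+ livers. By edgeR, Apoc2 was called in neither genotype, and Apoc3 and Apoc1 were not called in Plin2-null livers. Apoa5 TPM in Plin2-null livers was 845, 874, 914, 1230 and 1172 after fasting, against 797, 549, 641, 331 and 527 in the fed state. The Plin2+/+ livers held 725, 665, 819, 991 and 1102 TPM after fasting, against 525, 638, 598, 622 and 550 in the fed state. The fasted and fed libraries did not overlap in either genotype, although Plin2-null fed replicate 1 lay close under the lowest fasted library. Apoa5 rose by 1.11 ± 0.19 in Plin2-null livers (log2, SE; edgeR adjusted p = 9.49e-05), or 2.16-fold. The rise measured 0.70 ± 0.19 in Plin2+/+ livers (edgeR adjusted p = 0.00475), or 1.63-fold.

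Apoc3, whose protein inhibits the lipase and remnant uptake, lies between Apoa1 and Apoa4 on the opposite strand. Its TPM in Plin2-null livers was 1647, 1464, 1082, 1531 and 1972 after fasting, against 1771, 1889, 1857, 1707 and 1795 in the fed state. Plin2+/+ livers had 1030, 955, 1457, 1289 and 1775 TPM after fasting, against 1779, 2004, 1778, 2110 and 1999 in the fed state. In TPM the Plin2-null ranges overlapped, and in Plin2+/+ livers the highest fasted library lay just under the lowest fed ones. In TMM-scaled CPM the ranges overlapped in both genotypes. The log2 fold change was 0.05 (95% interval −0.23 to 0.32; edgeR adjusted p = 0.802) in Plin2-null livers. Its sign depended on the scaling. With library size alone it was −0.17 (edgeR adjusted p = 0.393), and limma on log2(TPM + 1) gave −0.25 (adjusted p = 0.217). Apoc3 fell by 0.42 ± 0.13 (log2, SE; edgeR adjusted p = 0.0139), or 1.34-fold, in Plin2+/+ livers. The TPM ratio of Apoa5 to Apoc3 was 0.670 ± 0.145 in Plin2-null fasted and 0.315 ± 0.093 in Plin2-null fed livers, and 0.670 ± 0.080 in Plin2+/+ fasted and 0.304 ± 0.024 in Plin2+/+ fed livers (SD, n = 5 each).

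Apoc1, whose protein interferes with lipase action and with receptor uptake of lipoproteins, had a call that depended on the scaling in Plin2-null livers. Its TPM in Plin2-null livers was 3927, 4645, 2999, 4320 and 5410 after fasting, against 5784, 6122, 6329, 6109 and 6473 in the fed state. Plin2+/+ livers had 3470, 3599, 3281, 4421 and 3696 TPM after fasting, against 6138, 6101, 5728, 6123 and 7110 in the fed state. Within each genotype every fasted library lay below every fed one in TPM, whereas in TMM-scaled CPM the Plin2-null groups overlapped. Apoc1 fell by 0.59 ± 0.12 (log2, SE; edgeR adjusted p = 5.41e-04), or 1.502-fold, in Plin2+/+ livers. In Plin2-null livers the log2 fold change was −0.25 ± 0.12 (edgeR adjusted p = 0.110). With library size alone the Plin2-null value was −0.47 (adjusted p = 0.0050), and limma on log2(TPM + 1) gave −0.56 (adjusted p = 0.0026), within a range of adjusted p from 0.0024 to 0.230 over all alternatives.

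Apoc2, the gene of the lipase cofactor, had the lowest TPM of the 10 by far, subject to the shared exons named above. TPM divides by the full exonic length, 79.5% of which Apoc2 shares with Gm44805. If reads on the shared bases went uncounted, the TPM of Apoc2 understates its level. Its TPM was 12.0, 12.3, 8.40, 19.9 and 14.3 in Plin2-null fasted against 27.6, 14.0, 9.13, 19.9 and 15.8 in Plin2-null fed livers. It was 24.1, 14.4, 14.2, 15.6 and 16.7 in Plin2+/+ fasted against 14.2, 10.9, 10.1, 20.5 and 14.5 in Plin2+/+ fed livers. The groups overlapped in both genotypes. The log2 fold change was −0.11 (95% interval −0.57 to 0.34) in Plin2-null and 0.43 (−0.03 to 0.89) in Plin2+/+ livers, where leaving out Plin2+/+ fed replicate 4 gave 0.58 (edgeR adjusted p = 0.0409, against 0.121 with all libraries and 0.0409 to 0.412 over all alternatives).

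Apoe encodes the main ligand for receptor uptake of remnants, and its values spread furthest in the Plin2+/+ fasted group. Its TPM in Plin2-null livers was 9438, 7730, 8004, 13752 and 11983 after fasting, against 11270, 10483, 11046, 6634 and 7448 in the fed state. The Plin2+/+ values were 3503, 3686, 5015, 8162 and 12591 after fasting, against 6515, 9468, 8283, 5845 and 9581 in the fed state. The ranges overlapped in both genotypes. The log2 fold change was 0.39 (95% interval −0.18 to 0.95) in Plin2-null and −0.14 (−0.71 to 0.42) in Plin2+/+ livers. Macrophages also transcribe Apoe. Of 9 Kupffer cell and macrophage markers tested, 4 fell with fasting in Plin2-null and 6 in Plin2+/+ livers, and none rose. Over all genes, 18.1% were called lower in Plin2-null and 21.7% in Plin2+/+ livers. Their summed TPM was 354 to 601 in Plin2-null fasted, 473 to 1201 in Plin2-null fed, 302 to 430 in Plin2+/+ fasted and 569 to 664 in Plin2+/+ fed livers, and all 9 were above 0 in some library. Their part in the Apoe values was not tested.

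**Figure D3:**
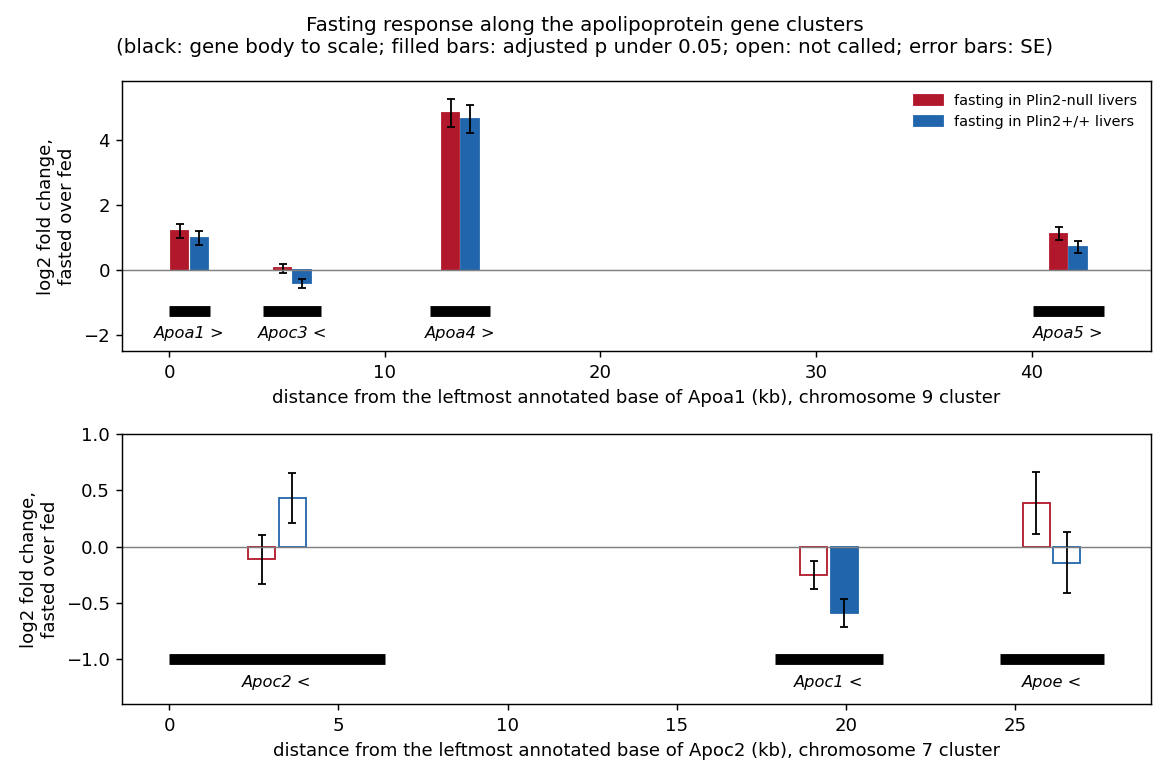
Log2 fold change of fasted over fed livers (y axis) along the chromosome 9 cluster (top) and the chromosome 7 cluster (bottom), against distance in kb from the leftmost base of Apoa1 or Apoc2, with gene bodies as black bars and transcription direction as arrowheads. Red bars are Plin2-null and blue bars Plin2+/+ livers, filled where the edgeR adjusted p was under 0.05, with SE; Apoa1, Apoa4 and Apoa5 rose by 0.70 to 4.82, while Apoc3 between them stood at 0.05 in Plin2-null and −0.42 in Plin2+/+ livers.

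Calls differed between neighbours within a cluster. On chromosome 9, 2466 bases separate Apoa1 from Apoc3 and 5059 bases separate Apoc3 from Apoa4, yet the outer genes rose where Apoc3 stood at 0.05 in Plin2-null and fell in Plin2+/+ livers. On the TPM scale the ratio of Apoc3 to Apoa1 within a library was 0.0819 ± 0.0067 in Plin2-null fasted and 0.191 ± 0.049 in Plin2-null fed livers, and 0.0731 ± 0.0134 in Plin2+/+ fasted and 0.195 ± 0.040 in Plin2+/+ fed livers (SD, n = 5 each). On chromosome 7, 3448 bases separate Apoc1 from Apoe, and the ratio of Apoe to Apoc1 was 2.43 ± 0.56 in Plin2-null fasted and 1.53 ± 0.39 in Plin2-null fed livers, and 1.76 ± 0.98 in Plin2+/+ fasted and 1.27 ± 0.25 in Plin2+/+ fed livers (SD, n = 5 each).

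For the 4 genes whose group means spanned at least 1 on the log2 CPM scale, the genes of nearest profile over the 20 libraries were listed by the root mean square difference of centred log2 CPM. Nearest to Mttp were Hacd3, an enzyme of very-long-chain fatty acid elongation (distance 0.140), Etfdh, an electron carrier of mitochondrial beta-oxidation (0.140), and Tor1b (0.147). Nearest to Apoa1 were the proteasome subunit gene Psmd4 (0.222), Rogdi (0.230) and the ubiquitin gene Ubb (0.244). Nearest to Apoa5 were Ybx3 (0.209), Ilvbl (0.221) and Fcgrt, the neonatal Fc receptor (0.225). Nearest to Apoa4 were Cgref1 (0.681), its own antisense partner Gm10680 (0.682) and Unc79 (0.700). These were weakly expressed, with mean levels of 4.10 CPM for Cgref1, 2.22 CPM for Gm10680 and 1.70 CPM for Unc79. Gm10680 overlaps Apoa4 exons, so its reads cannot be told apart from those of Apoa4 with certainty. The distances are not scaled to a gene's span, which was 4.83 for Apoa4, 1.46 for Mttp, 1.23 for Apoa1 and 1.16 for Apoa5.

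Loss of Plin2 was followed by no called change in these genes. In fasted livers 0 of 10 were called by edgeR, where 3.24% of all genes were called (1.51% higher and 1.73% lower). There 1 of the 10 had an unadjusted edgeR p under 0.05, against 3962 of all 16312 genes tested. DESeq2 and limma voom also called 0 of the 10. In fed livers 0 of 10 were called, where 0.0184% of all genes were called (0.0123% higher and 0.00613% lower). There 0 of the 10 had an unadjusted edgeR p under 0.05, against 694 of all 16312 genes tested. DESeq2 and limma voom called 0 of the 10. With library size alone the calls over all genes in fasted livers were 70 higher and 38 lower, against 246 and 282 by TMM. That share moved with single libraries: 528 genes were called with all libraries, 13 without Plin2+/+ fasted replicate 2, 84 without replicate 3 and 89 without replicate 1 of that group, 15 without Plin2-null fasted replicate 5, 156 without replicate 3 and 210 without replicate 1 of that group, 316 without Plin2-null fed replicate 3, 290 without Plin2+/+ fed replicate 3, 963 without Plin2+/+ fasted replicate 4 and 1794 without Plin2+/+ fasted replicate 5. The median log2 difference of the 10 genes was 0.09 in fasted and −0.09 in fed livers, beside 0.02 over all genes in fasted and 0.00 in fed livers. No gene of the set had genotype groups that were apart in CPM, against 4.08% of all genes in fasted and 0.877% in fed livers.

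Apoe stood furthest from 0 in fasted livers. The Plin2-null fasted libraries ran from 7730 to 13752 TPM, against 3503 to 12591 TPM in the Plin2+/+ fasted libraries, whose replicate 5 lay above 4 of the 5 Plin2-null values and whose other 4 reached at most 8162 TPM. The log2 difference was 0.67 ± 0.27 (SE; 95% interval 0.10 to 1.24), with an unadjusted p of 0.0226 and an edgeR adjusted p of 0.143. Without Plin2+/+ fasted replicate 5 it was 0.95 (edgeR adjusted p = 0.0244), and over all alternatives the adjusted p ran from 0.0244 to 0.333. With each library's trend with GC content removed, the difference was 0.42. The summed Kupffer cell and macrophage markers were 354 to 601 TPM in Plin2-null fasted and 302 to 430 TPM in Plin2+/+ fasted livers. None of these 9 was called between genotypes. Of 5 stellate cell markers, 2 were called higher in Plin2-null fasted livers, where 1.51% of all genes were called higher. No cholangiocyte or endothelial marker was called between genotypes. The part of these cell types in the Apoe difference was not tested.

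The remaining genes were bounded by their intervals. In fasted livers the log2 difference was −0.13 (95% interval −0.39 to 0.12) for Mttp and −0.18 (−0.47 to 0.11) for Apob. For the HDL genes it was 0.06 (−0.39 to 0.50) for Apoa1, 0.03 (−0.24 to 0.30) for Apoa2 and 0.12 (−0.66 to 0.90) for Apoa4. Apoa4 had the widest of these intervals, and its Plin2+/+ fasted values ran from 1683 to 9913 TPM. For the genes acting on the lipase it was 0.27 (−0.12 to 0.66) for Apoa5, 0.27 (−0.0031 to 0.54) for Apoc3, 0.22 (−0.03 to 0.48) for Apoc1 and −0.32 (−0.78 to 0.13) for Apoc2.

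In fed livers the differences were of either sign. They lay between −0.20 for Apoc3 (95% interval −0.47 to 0.08) and 0.22 for Apoc2 (−0.23 to 0.68), with edgeR adjusted p = 1.00 for all 10 genes. Mttp differed by −0.07 (−0.33 to 0.18) and Apob by 0.08 (−0.21 to 0.37). Apoa4 differed by −0.07 (−0.85 to 0.72) and Apoe by 0.14 (−0.42 to 0.71). Differences within these intervals could not be resolved with 5 libraries a group.

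**Figure D4:**
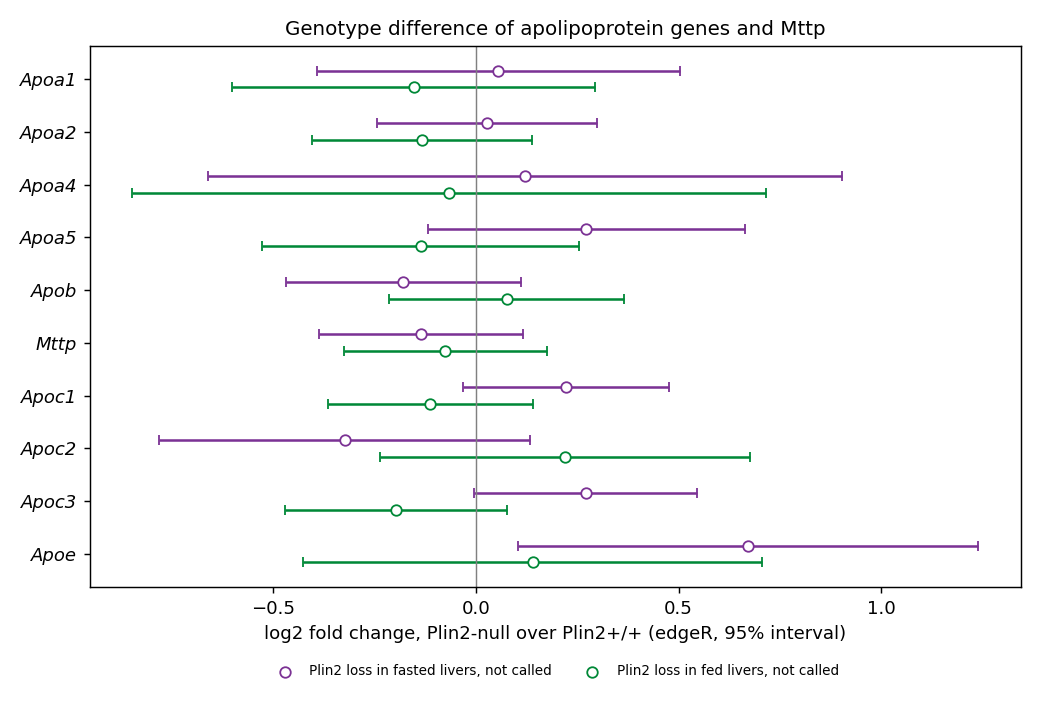
Log2 fold change of Plin2-null over Plin2+/+ livers (x axis) for each of the 10 genes, in fasted (purple) and fed (green) mice, with 95% intervals; open points were not called. The Apoe interval in fasted livers, 0.10 to 1.24, is the only one of the 20 that leaves out 0, and its adjusted p was 0.143.

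Whether the fasting response itself depended on Plin2 was tested as the interaction, the fasting response in Plin2-null minus that in Plin2+/+ livers. None of the 10 genes was called by edgeR, where 0% of all genes were called. DESeq2 and limma voom called 0 of them. By edgeR 1 of the 10 had an unadjusted p under 0.05, against 2250 of all 16312 genes tested. That gene was Apoc3, with an interaction of 0.47 ± 0.19 (log2, SE; unadjusted p = 0.0205; edgeR adjusted p = 0.294). Apoc1, the other gene called with fasting in Plin2+/+ livers alone, had 0.33 ± 0.17 (edgeR adjusted p = 0.385), so neither fasting response was shown to differ between genotypes. For Mttp the interaction was −0.06 (95% interval −0.42 to 0.29), and for Apoa4 it was 0.19 (−0.92 to 1.29). Over the 10 genes the median was 0.20, beside 0.02 over all genes.

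Genes called with fasting among others that assemble and export VLDL were found in both directions. Of 14 tested, 4 rose and 2 fell in Plin2-null livers, and 5 rose and 4 fell in Plin2+/+ livers, with median log2 fold changes of 0.14 in Plin2-null and −0.04 in Plin2+/+ livers, beside −0.01 over all genes in each, where 36.1% were called in Plin2-null and 42.6% in Plin2+/+ livers. With library size alone, 2 were called higher and 3 lower in Plin2-null livers, and 4 higher and 4 lower in Plin2+/+ livers. Sar1b, the GTPase of the coat that carries large cargo out of the endoplasmic reticulum, rose by 0.75 in Plin2-null and 0.63 in Plin2+/+ livers. Mia2, a cargo receptor gene, rose by 0.28 in Plin2-null and 0.58 in Plin2+/+ livers. Lpcat3, whose enzyme remodels phospholipids, rose by 0.62 in each genotype, and the membrane scramblase gene Vmp1 rose by 0.55 in Plin2-null and 0.67 in Plin2+/+ livers. Sort1, a sorting receptor that binds apolipoprotein B, fell, at −1.32 in Plin2-null and −1.84 in Plin2+/+ livers. Tmem41b, another scramblase gene, fell, at −0.53 in Plin2-null and −0.68 in Plin2+/+ livers. P4hb, the partner subunit of the microsomal triglyceride transfer protein, stood at −0.14 (edgeR adjusted p = 0.297) in Plin2-null livers and fell, at −0.64, in Plin2+/+ livers (edgeR adjusted p = 2.82e-05). The Mia2 call in Plin2-null livers was lost in 6 of 33 alternative settings, and its sign turned in 2 of them (adjusted p from 0.0027 to 0.944), while in Plin2-null livers Vmp1 lost its call in 3 (up to 0.204) and Lpcat3 in 2 (up to 0.114), by library size alone or limma on TPM. None of the 14 was called between genotypes or in the interaction.

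Of 10 other apolipoprotein genes, 9 were tested. In Plin2-null livers 1 rose, Apoo (0.53), whose product is a mitochondrial cristae protein. In Plin2+/+ livers Apoo (0.65) and Apoh (0.32) rose and Apof, a regulator of lipid transfer, and Apon fell, at −0.64 and −0.40. The medians of the 9 were 0.10 in Plin2-null and −0.03 in Plin2+/+ livers, beside −0.01 over all genes in each. Over all genes, 36.1% were called in either direction in Plin2-null and 42.6% in Plin2+/+ livers. With library size alone, 0 were called higher and 2 lower in Plin2-null livers, and 1 higher and 3 lower in Plin2+/+ livers. None was called between genotypes. The Apoh call was lost in 14 of 33 alternative settings and the Apoo call in Plin2-null livers in 5, of which 8 and 2 left out a library (adjusted p up to 0.329 for Apoh and 0.318 for Apoo).

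More genes of plasma lipoprotein remodelling and uptake fell with fasting than rose. Of 17 tested, 4 rose and 7 fell with fasting in Plin2-null livers, and 2 rose and 10 fell in Plin2+/+ livers, with medians of −0.25 in Plin2-null and −0.46 in Plin2+/+ livers, beside −0.01 over all genes in each, where 18% rose and 18.1% fell in Plin2-null and 20.9% rose and 21.7% fell in Plin2+/+ livers. With library size alone, 2 were called higher and 7 lower in Plin2-null livers, and 1 higher and 11 lower in Plin2+/+ livers. Angptl4, an inhibitor of lipoprotein lipase, rose by 2.52 in Plin2-null and 2.98 in Plin2+/+ livers, and Lcat, which esterifies HDL cholesterol with Apoa1 protein as its cofactor, rose by 0.64 in Plin2-null and 0.40 in Plin2+/+ livers. The log2 fold change of Abca1, which lipidates apolipoprotein A-I, was −0.55 in Plin2-null and −0.87 in Plin2+/+ livers, and it was called lower in each. Between genotypes in fasted livers, 3 of the 17 were called higher in Plin2-null and 0 lower. Over all genes 1.51% were called higher and 1.73% lower. The median of the 17 was 0.35, beside 0.02 over all genes. With library size alone, 1 was called higher and 0 lower. Genes called higher included Sdc1, a heparan sulfate receptor for remnants (0.67 ± 0.14 SE, edgeR adjusted p = 0.0191), and the HDL receptor gene Scarb1 (0.35 ± 0.09, edgeR adjusted p = 0.0437). The calls depended on the setting. Of 33 alternative settings, that of Sdc1 was lost in 8 (adjusted p from 0.0012 to 0.0882) and that of Scarb1 in 18 (0.0095 to 0.291), in each case also on leaving out Plin2-null fasted replicate 5 or Plin2+/+ fasted replicate 1, 2 or 3, and the Lcat call with fasting in Plin2+/+ livers was lost in 3, by library size alone or limma on TPM (adjusted p up to 0.195). In fed livers none was called.

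Of 18 genes for transcriptional regulators of apolipoprotein genes, 6 rose and 3 fell with fasting in Plin2-null livers, and 7 rose and 4 fell in Plin2+/+ livers, with medians of 0.19 in Plin2-null and 0.11 in Plin2+/+ livers, beside −0.01 over all genes in each, where 36.1% were called in Plin2-null and 42.6% in Plin2+/+ livers. With library size alone, 3 were called higher and 6 lower in Plin2-null livers, where calls over all genes were 1376 higher and 4243 lower. In Plin2+/+ livers 5 were called higher and 4 lower, where calls over all genes were 1854 higher and 4173 lower. Creb3l3, a liver transcription factor known to act on Apoa4, rose by 1.195 in Plin2-null and 0.81 in Plin2+/+ livers. Ppara, the fatty acid receptor, rose by 0.65 in Plin2-null and 0.85 in Plin2+/+ livers. Foxo1, a factor known to act on Mttp, rose by 0.89 in Plin2-null and 0.91 in Plin2+/+ livers. Nr0b2, a repressor of nuclear receptors, fell, at −0.64 in Plin2-null and −1.60 in Plin2+/+ livers. Srebf1, a regulator of lipid synthesis, fell, at −3.32 in Plin2-null and −4.70 in Plin2+/+ livers. Hnf4a, an activator of many apolipoprotein genes, stood at 0.29 (edgeR adjusted p = 0.0705) in Plin2-null and rose by 0.49 in Plin2+/+ livers (edgeR adjusted p = 0.00309). Between genotypes in fasted livers, 1 of the 18 was called higher and 1 lower, where 1.51% of all genes were called higher and 1.73% lower. The median of the 18 was 0.30, beside 0.02 over all genes. Srebf1 was higher (1.28 ± 0.26 SE, edgeR adjusted p = 0.0186) and the coactivator gene Ppargc1a lower (−1.52 ± 0.38, edgeR adjusted p = 0.0415) in Plin2-null mice. Of 33 alternative settings, the genotype call of Srebf1 was lost in 6 (adjusted p from 2.64e-04 to 0.0882) and that of Ppargc1a in 15 (9.75e-04 to 0.112), in both cases also on leaving out Plin2-null fasted replicate 5 or Plin2+/+ fasted replicate 1, 2 or 3. The fasting call of Nr0b2 in Plin2-null livers was lost in 15 (0.0051 to 0.118), 12 of which left out a library, and those of Ppara and Foxo1 in Plin2-null and Hnf4a in Plin2+/+ livers in 3 each, by library size alone or limma on TPM. None of the 18 was called between genotypes in fed livers or in the interaction.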

How the data were processed

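Libraries were strand-specific and made from liver mRNA, as the labels' protocols state. The authors deposited whole-number counts per Ensembl mouse gene, made with HISAT2 1.2.1 and featureCounts 1.4.6-p1 per the submitters' processing notes, which name the build GRCh38 although the identifiers are mouse. The authors also deposited TPM values. Over 7109 genes with more than 200 counts per library, the TPM were the counts per kilobase scaled to a sum of 1000000, with the GENCODE M21 (GRCm38) exonic length within 0.1% for 6992 genes and all 10 members, so positions are from M21. The TPM header stands 1 cell left of its values, and columns were matched by number.

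Libraries were grouped by their labels. Among 40 within-group pairs, chi-square over its degrees of freedom was at least 45.3, so none was treated as a duplicate. Counts were fitted in R 4.3.3 with edgeR 4.0.16 (filterByExpr, TMM, robust glmQLFit over all 20 libraries, 1 coefficient per group, glmQLFTest, Benjamini-Hochberg over 16312 genes). Each SE was derived from the estimate and its F statistic, and intervals are 95%. Symbols matched 55141 of 55487 identifiers. The fit was tested on simulated counts. Members, gene lists and motifs were chosen with earlier results of these data known. The rule for named genes took Plin2, all 10 members, members of the described lists, and the 3 nearest profiles of a member spanning at least 1 log2. Alternatives used limma 3.58.1, DESeq2 1.42.0, RLE factors, library size alone, other filters, removal of the GC trend, members left out of the scaling, the compared groups alone, TPM on a log2 scale and each library left out in turn. A covariate for the rRNA-like share and the removal of CT010467.1 and Lars2 were chosen after seeing the data. Some genes of the described lists are not reported here by name.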

Additional observations from a re-analysis of the deposited data

Results flagged for a closer look

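In the 40 sets of 5 libraries checked (10 genes by 4 groups, on the TPM scale), 2 values stood far from the rest of their group by Dixon's criterion, which chance meets in about 1 of 20 such sets. Both came from Plin2+/+ fasted replicate 1. Apob had 1839 TPM there, where the other 4 libraries of the group ran from 958 to 1151 TPM. Apoc2 had 24.1 TPM there, where the others ran from 14.2 to 16.7 TPM. The same library had the highest Mttp TPM of its group, 503, and the lowest Apoe TPM, 3503. Without it, the fasting response in Plin2+/+ livers was 0.10 for Apob and 0.35 for Apoc2 on the log2 scale, against 0.21 and 0.43 with it, none of them called.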

How the results depend on the processing

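Of 1640 values of single genes under alternatives, 1633 kept their side of the threshold, 7 passed it where the reported value did not, and no called value was lost or reversed; 48 uncalled values changed sign. The count of called genes of the 10 stayed at 4 to 5 for fasting in Plin2-null, 6 to 7 for fasting in Plin2+/+, and 0 for Plin2 loss in fed livers and for the interaction. For Plin2 loss in fasted livers it ran from 0 to 1 with single libraries left out: Apoe was called without Plin2+/+ fasted replicate 5. The 7 values were that one, Apoc2 in Plin2+/+ livers without Plin2+/+ fed replicate 4 (0.58) and with the GC trend removed (0.61, adjusted p = 0.0470), and Apoc1 in Plin2-null livers with library size alone (−0.47), the rRNA-like covariate (−0.33, adjusted p = 0.0447), and TPM with a pseudocount of 1 (−0.56) or 0.1 (−0.56). The cause was not tested. Over all genes, calls for Plin2 loss in fasted livers numbered 528 in edgeR, 27 by limma on log2(TPM + 1), 39 on log2(TPM + 0.1), 104 on the compared groups alone, 108 with library size alone, 173 with the covariate, 319 without a filter and 1421 in DESeq2. With single libraries left out they ran from 13, without Plin2+/+ fasted replicate 2, to 1794, without Plin2+/+ fasted replicate 5. For Plin2 loss in fed livers they were 3, with 2 to 4 over the other settings and 6 in DESeq2; for the interaction they were 0, against 0 to 2 over the other settings, single libraries left out included, and 65 in DESeq2. No paired analysis was possible because the labels give no replicate numbers shared between groups. By limma on log2(TPM + 1), the fasting calls over all genes were 1014 higher and 4567 lower in Plin2-null and 1567 higher and 3623 lower in Plin2+/+ livers. Apoc2 rested on the fewest counts of the 10 genes, 107 to 375 a library.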
